A study of Mus musculus with 8 samples.

Results

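The genes described here encode the killing machinery of natural killer (NK) cell granules. They are perforin (Prf1), the granzymes Gzma, Gzmb, Gzmc, Gzmk and Gzmm, and the granule genes Nkg7, Srgn, Ctsw and Lamp1, 10 of 21883 protein-coding genes. The measurement was ATAC-seq, in which a transposase cuts open chromatin, and the deposited data were lists of called peaks. A peak belonged to a gene when, of all ends of protein-coding genes, an end of that gene lay nearest to its midpoint and no more than 50 kb away. By this rule 39 to 40 peaks in each MUT library and 38 to 41 peaks in each WT library belonged to the 10 genes. Peaks of different libraries that shared at least 1 bp were merged, which gave 41 regions out of 55946. Such a link is a distance only, and the gene on which a region acts was not tested.

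All libraries came from NK cells sorted as CD49b+ CD3e- from DX5-enriched spleens of unchallenged mice, 200000 cells per mouse and 1 mouse per library. The MUT group was 4 mice (replicates 26, 27, 28 and 29) with the genotype HSF1-S303/7A, in which serines 303 and 307 of the heat shock transcription factor HSF1 are alanines. The WT group was 4 mice (replicates 4, 5, 6 and 7) with wild-type HSF1. The labels name no strain, age or litter and do not say in which cells the change was made. Any other difference between the mice cannot be told apart from the genotype. The comparison asked how the open chromatin of these genes in resting NK cells differed between the genotypes.

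NK cells store perforin and granzymes in secretory lysosomes and release them onto a bound target cell. Perforin makes pores in the target membrane, and granzymes, a family of serine proteases, then enter the target and start its death. Within the granule these proteins are held by the proteoglycan serglycin, the product of Srgn. Resting mouse NK cells are known to hold Gzmb and Prf1 mRNA before they hold much of the proteins, so the state of the chromatin at these genes before activation is of interest.

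The promoters below are shown because the results turn on which start sites lay in called peaks. Prf1 and Gzmb had the strongest peaks over a start site among these genes, Gzma and Gzmk had weaker ones, and the annotated start site of Gzmc had almost none. Each sequence holds 250 bases before and 50 bases from the start site, 5′ to 3′, from RefSeq (GRCm38.p6). Capitals mark matches on either strand to RUNX (TGTGGT), AP-1 (TGANTCA), CRE half-site (TGACGT), ETS (GGAAGT), T-box (GGTGTGA) and the heat shock element forms GAANNTTC and TTCNNGAA.
Prf1 promoter, chr10:61297586-61297885, plus strand: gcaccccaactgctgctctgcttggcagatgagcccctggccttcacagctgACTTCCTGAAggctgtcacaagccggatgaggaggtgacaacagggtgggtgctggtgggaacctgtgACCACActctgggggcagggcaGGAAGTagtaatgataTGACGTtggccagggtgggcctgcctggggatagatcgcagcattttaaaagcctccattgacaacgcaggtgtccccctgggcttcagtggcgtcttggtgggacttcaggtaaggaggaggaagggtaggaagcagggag
Gzmb promoter, chr14:56262285-56262584, minus strand: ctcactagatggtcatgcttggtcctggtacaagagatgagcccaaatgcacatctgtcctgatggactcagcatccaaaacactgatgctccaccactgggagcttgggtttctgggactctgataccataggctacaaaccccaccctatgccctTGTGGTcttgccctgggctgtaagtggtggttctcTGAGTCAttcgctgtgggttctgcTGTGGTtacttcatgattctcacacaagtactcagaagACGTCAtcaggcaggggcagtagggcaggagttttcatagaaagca
Gzma promoter, chr13:113100932-113101231, minus strand: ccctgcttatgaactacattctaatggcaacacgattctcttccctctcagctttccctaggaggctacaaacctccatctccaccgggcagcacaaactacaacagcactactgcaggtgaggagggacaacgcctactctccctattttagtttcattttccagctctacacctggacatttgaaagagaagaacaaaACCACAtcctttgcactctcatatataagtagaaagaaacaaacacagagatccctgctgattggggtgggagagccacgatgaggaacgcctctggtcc
Gzmk promoter, chr13:113180916-113181215, minus strand: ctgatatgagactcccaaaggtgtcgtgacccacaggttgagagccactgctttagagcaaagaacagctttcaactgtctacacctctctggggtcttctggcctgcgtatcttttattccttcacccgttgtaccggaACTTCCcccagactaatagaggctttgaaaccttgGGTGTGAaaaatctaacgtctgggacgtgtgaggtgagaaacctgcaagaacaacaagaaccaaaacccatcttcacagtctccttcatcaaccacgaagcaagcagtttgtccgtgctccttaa
Gzmc promoter, chr14:56234608-56234907, minus strand: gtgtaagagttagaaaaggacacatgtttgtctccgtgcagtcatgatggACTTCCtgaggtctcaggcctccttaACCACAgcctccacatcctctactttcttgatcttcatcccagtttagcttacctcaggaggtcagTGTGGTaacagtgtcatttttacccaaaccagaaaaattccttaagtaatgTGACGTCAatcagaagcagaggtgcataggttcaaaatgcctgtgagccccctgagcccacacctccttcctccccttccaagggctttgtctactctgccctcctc

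With the start-site base as 0 and bases before it negative, Prf1 held ETS matches at -198 to -193 and at -108 to -103, a RUNX match at -130 to -125 and a CRE half-site at -92 to -87. The ETS match at -198 overlapped the heat shock match TTCCTGAA at -196 to -189. Gzmb held RUNX matches at -93 to -88 and at -34 to -29, an AP-1 match at -58 to -52 and a CRE half-site at 4 to 9. In Gzmc the CRE half-sites of both strands overlapped, at -57 to -52 and at -55 to -50. Gzmk held an ETS match and the T-box match GGTGTGA at -75 to -69, and Gzma a single RUNX match at -50 to -45. RUNX letters stood in 8 of the 11 promoters listed for the granule genes, against 15.0% of 21262 promoters of the same length. ETS letters stood in 4 of 11 (24.8% of all promoters), CRE half-sites in 4 (8.49%), T-box letters in 3 (3.68%), AP-1 letters in 1 (6.99%), TTCNNGAA in 2 (7.61%) and GAANNTTC in 0 (7.21%). A match describes letters and does not show binding.

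Linked peak length did not pass the test between the genotypes at any of the 10 genes. Over all of them, 18430 to 20032 bp of peaks were linked in MUT libraries and 18778 to 19433 bp in WT libraries. The length of each gene was scaled to the total linked length of its library and tested with limma as log2(bp + 200) over 14252 genes, with Benjamini-Hochberg adjustment. Of the 10 genes 0 passed, while 0.674% of all genes did, 0.442% with more and 0.232% with less length in MUT. An unadjusted p under 0.05 was found for 0 of the 10, against 11.2% of all genes. The lengths of the genotypes overlapped for each of the 10, whereas 5.75% of all genes had groups apart. The median log2 difference, MUT minus WT, was -0.028 over the 10 genes, of which 4 were above 0, and -0.019 over all genes. In bulk cells a region open in fewer cells and a region less open in each cell cannot be told apart.

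**Figure D1:**
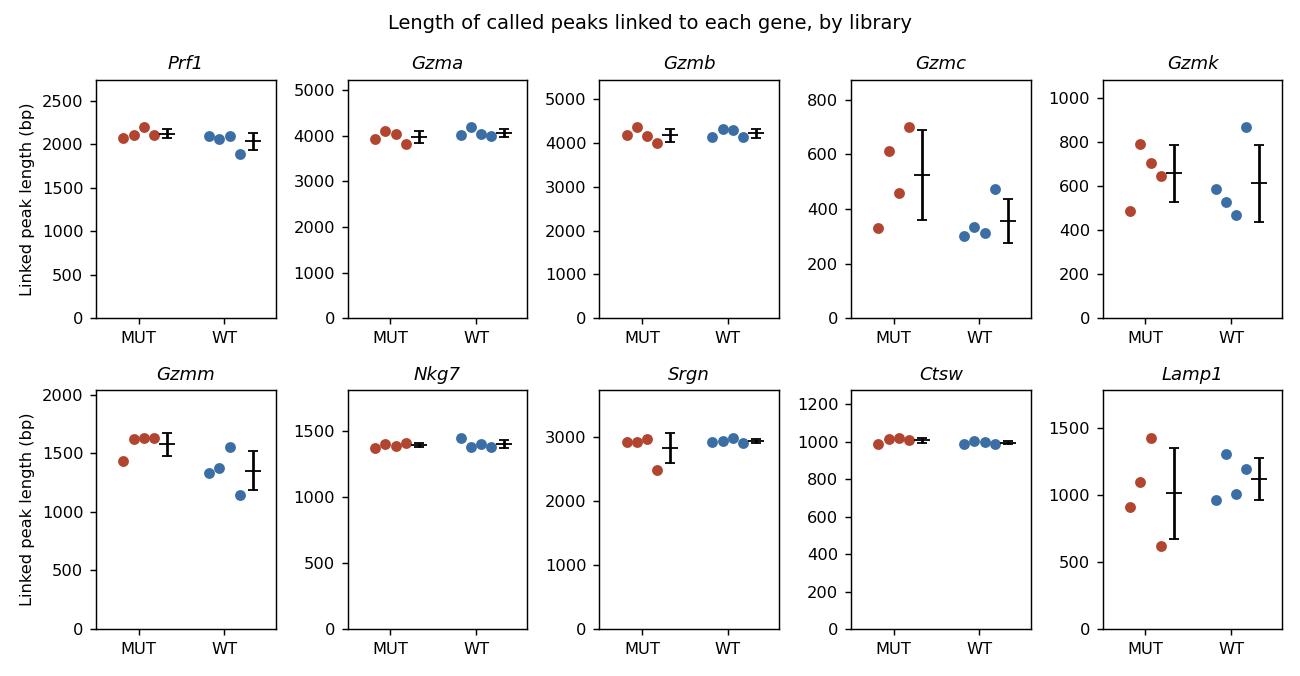
Each panel gives the summed length of the peaks linked to 1 gene (y axis, bp, from 0) in 4 MUT libraries (red) and 4 WT libraries (blue), with the mean and SD as black bars. The groups overlap in every panel, and Gzmc, Gzmk, Gzmm and Lamp1 vary more between libraries than Nkg7 or Ctsw.

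The genes themselves differed widely. By mean linked length over the 8 libraries the order was Gzmb (4195 bp), Gzma (4015 bp), Srgn (2882 bp), Prf1 (2078 bp), Gzmm (1466 bp), Nkg7 (1398 bp), Lamp1 (1064 bp), Ctsw (1002 bp), Gzmk (635 bp) and Gzmc (439 bp). Ranges over the libraries did not overlap between Gzma and Srgn, Srgn and Prf1, Prf1 and Gzmm, or Ctsw and Gzmk, and overlapped between the other neighbours in this order. Gzmb exceeded 96.2% of all genes tested in linked length and Gzmc 15.1%, and the median gene had 1017 bp against a median of 1432 bp for the 10 genes. A gene with distant neighbours can gather more peaks, so lengths were also divided by the stretch of chromosome nearest to the ends of each gene. On that scale Nkg7 was highest with 478 bp per kb, followed by Ctsw (150.2), Gzmm (132), Gzma (98.2), Prf1 (78.2), Gzmb (67.6), Srgn (54.8), Lamp1 (47.2), Gzmc (15.2) and Gzmk (13.0), and the median gene had 24.0 bp per kb.

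Called regions at these genes were mostly shared by all mice. Of the 41 regions, 40 were found in at least 2 libraries and 35 in 8 of 8, or 87.5% of the 40, against 68.9% of all 50044 such regions. The 35 shared regions had a median width of 439 bp, against 505 bp for all 34461 regions shared by 8 libraries. Their median score percentile within their lists was 47.6, against 61.4 for all shared regions. The score is the authors' unnamed value per peak, and a percentile here is its rank within 1 list, with 100 the strongest. Start sites lay in an 8-of-8 region in 8 of the 9 genes with a start site in the promoter table, against 49.8% of 17491 protein-coding genes.

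Perforin is the pore-forming protein, and its gene (chromosome 10, 61297751 to 61304684, gene ID 18646) had a peak over the start site in all 8 libraries. This region (61296885 to 61297933) was 1016, 1010, 1003 and 1027 bp wide in MUT libraries and 1007, 1021, 1010 and 1022 bp wide in WT libraries. Its percentile was 73.1, 70.6, 70.1 and 69.9 in MUT and 72.9, 74.3, 73.0 and 73.8 in WT. The widths overlapped, and the log2 difference of width was -0.0014 (limma over 34461 regions, adjusted p = 0.993).

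Beyond the 3′ end of Prf1 lay a second strong region (61306014 to 61306670), 562, 565, 638 and 606 bp wide in MUT and 546, 562, 574 and 599 bp in WT, at a mean percentile of 72.9 in MUT and 73.9 in WT. A weak region in the gene body (61301043 to 61301330) had a mean percentile of 8.79 in MUT and 6.54 in WT. A further weak region downstream (61308470 to 61308757) was called in 4 of 4 MUT and 3 of 4 WT libraries. In sum Prf1 had 2075, 2107, 2194 and 2109 bp in MUT and 2096, 2064, 2094 and 1888 bp in WT. The low value was that of WT replicate 7, the library without the downstream peak. The log2 difference was 0.019 (SE 0.051, 95% interval -0.098 to 0.14, limma adjusted p = 0.917).

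**Figure D2:**
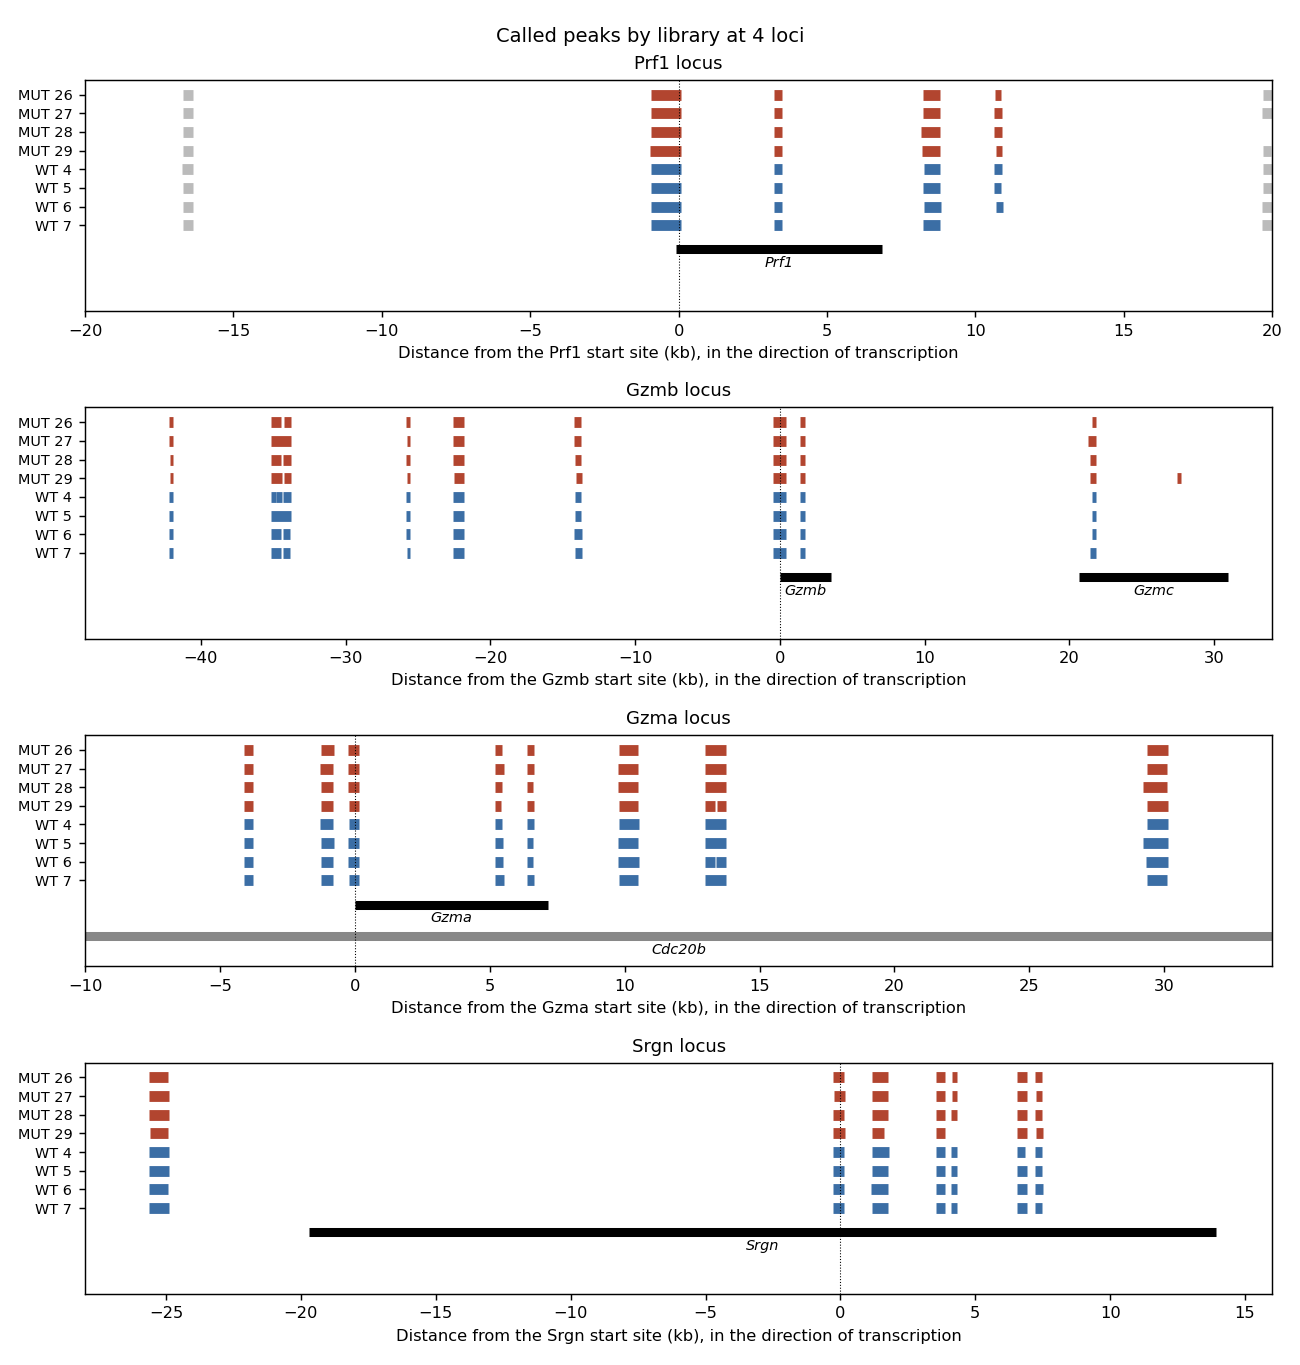
Called peaks (bars) of each library (rows) at the Prf1, Gzmb, Gzma and Srgn loci, by distance in kb from a start site at 0 (for Srgn the start site inside the gene interval). Red and blue bars are MUT and WT peaks linked to the named gene or to Gzmc, grey bars are peaks linked to another gene, and black and dark grey bars below are gene intervals; nearly all peaks recur in the 8 rows.

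Granzyme B cleaves caspases and other substrates after aspartate, and its gene (chromosome 14, 56258836 to 56262334, gene ID 14939) had the largest mean linked length of the set. The region over its start site (56261895 to 56262831) was 893, 907, 893 and 898 bp wide in MUT and 879, 871, 896 and 916 bp in WT. Its percentile was 79.5, 79.5, 79.6 and 76.7 in MUT and 76.2, 77.3, 78.0 and 79.6 in WT. Among the 9 genes in the promoter table no start site ranked higher, and the groups overlapped.

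Most of the length linked to Gzmb lay upstream of the gene. Of its 7 regions, all called in 8 of 8 libraries, 5 had midpoints from 13949 to 42043 bp before the start site. The strongest of these (56284135 to 56284900, 22194 bp upstream) outranked the start-site region, at percentiles of 91.2, 87.8, 92.1 and 94.4 in MUT and 90.2, 85.7, 87.5 and 92.0 in WT. Its width was 717, 744, 740 and 704 bp in MUT and 703, 751, 724 and 734 bp in WT. The widest (56296127 to 56297506, 34484 bp upstream) held up to 3 separate peaks in a library and covered 1202, 1365, 1274 and 1210 bp in MUT and 1236, 1367, 1271 and 1210 bp in WT. In sum Gzmb had 4184, 4352, 4160 and 4000 bp in MUT and 4130, 4319, 4293 and 4125 bp in WT, with a log2 difference of -0.052 (SE 0.035, 95% interval -0.13 to 0.029, limma adjusted p = 0.629).

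Granzyme C stands next to granzyme B in the same cluster, and its gene (56231397 to 56241647, gene ID 14940) had little open chromatin. The start site in the promoter table (56234657) was covered by a peak in 1 of 4 MUT libraries (replicate 29, 246 bp) and 0 of 4 WT libraries. The gene's shared region lay elsewhere in the interval (56240463 to 56241077), upstream of that start site and 981 bp from the end nearer to Gzmb. It was 329, 612, 458 and 452 bp wide in MUT and 299, 334, 311 and 473 bp in WT, at mean percentiles of 60.5 and 63.2 (limma on width, adjusted p = 0.656). In sum Gzmc had 329, 612, 458 and 698 bp in MUT and 299, 334, 311 and 473 bp in WT. Its log2 difference was 0.34, or 0.20 without MUT replicate 29, and its interval over all 8 libraries was wide (SE 0.19, 95% interval -0.084 to 0.76, limma adjusted p = 0.560). MUT replicates 27 and 29 were above all WT libraries, and MUT replicates 26 and 28 stood among them.

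Further along the cluster, no peak covered the listed start sites of Gzmf, Gzmn, Gzmg, Gzmd or Gzme in any library. Gzmf had a linked peak in 7 of 8 libraries, and Gzmn, Gzmg, Gzmd and Gzme in 0. The promoters of these genes are close copies in part. The Gzmd and Gzme promoters were identical in 93.4% of alignment columns, Gzmc and Gzmd in 83.4%, Gzmc and Gzme in 83.3%, and Gzmf and Gzmg in 84.8%, while Gzmb shared 49.4% with Gzmc and 51.9% with Prf1. How reads that match several places were treated is not given in the sources used here, so values at Gzmc to Gzmg are uncertain.

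Granzyme A is a tryptase that kills without the classical caspase route, and its gene (chromosome 13, 113093824 to 113100981, gene ID 14938) lies within the longer interval of Cdc20b. Gzma had 8 regions, each called in 8 of 8 libraries, the most of the 10 genes. The region over the start site (113100828 to 113101230) was 398, 382, 385 and 373 bp wide in MUT and 365, 395, 394 and 365 bp in WT, at mean percentiles of 36.0 and 33.8. Stronger regions lay on either side. The strongest was 22579 bp past the 3′ end (113070820 to 113071757), with percentiles of 80.5, 82.1, 74.1 and 72.6 in MUT and 71.0, 78.4, 76.5 and 76.4 in WT. Regions 1030 bp and 3947 bp upstream had mean percentiles of 54.5 and 49.9 in MUT and 51.3 and 50.7 in WT. In sum Gzma had 3925, 4105, 4046 and 3827 bp in MUT and 4007, 4182, 4028 and 4003 bp in WT, with a log2 difference of -0.065 (SE 0.035, 95% interval -0.14 to 0.015, limma adjusted p = 0.554).

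Granzyme K is a tryptase typical of T cells and of less mature NK cells, and its gene lies near Gzma (chromosome 13, 113171630 to 113180965, gene ID 14945). The peak over its start site (113180813 to 113181147) had percentiles of 39.2, 47.2, 39.2 and 31.0 in MUT and 18.8, 14.5, 13.2 and 23.4 in WT. All 4 MUT values lay above all 4 WT values, the only one of the 35 shared regions in which the percentiles of the groups did not overlap, whereas 12.8% of all 34461 shared regions had groups apart in either direction and 7.60% had MUT above WT. Ranks from lists of different lengths are no test of a change, and none was made.

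The width of that Gzmk peak was 286, 326, 312 and 281 bp in MUT and 207, 290, 221 and 254 bp in WT, so the groups overlapped. The log2 difference of width was 0.32 (SE 0.11, 95% interval 0.061 to 0.58), with an unadjusted p of 0.0218 and an adjusted p of 0.457 by limma over 34461 regions. Past the 3′ end of Gzmk a region (113170137 to 113170651) was 200, 241, 394 and 365 bp wide in MUT and 380, 236, 249 and 387 bp in WT. An upstream region (113183485 to 113183733) was called in MUT replicate 27 and WT replicate 7 alone, and these libraries had the highest sums. In sum Gzmk had 486, 793, 706 and 646 bp in MUT and 587, 526, 470 and 867 bp in WT (log2 difference 0.057, SE 0.16, 95% interval -0.31 to 0.43, limma adjusted p = 0.924). The linked length of the 5 T cell markers with peaks, not scaled, summed to 7434 to 10305 bp in MUT and 6148 to 7527 bp in WT. The highest sum was that of MUT replicate 27, whose list was the longest (49627 peaks). Of the 5 markers 3 had a log2 difference above 0. Cd3d (mean 1144 bp in MUT and 1157 bp in WT) and Cd3g (255 and 259 bp) did not. The part of T cells in the Gzmk values was not tested.

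Granzyme M cleaves after methionine or leucine and is typical of NK cells, and its gene (chromosome 10, 79689020 to 79695261, gene ID 16904) held the region called most unevenly between the genotypes. A weak region 235 bp before the start site (79688638 to 79688903) was called in 4 of 4 MUT libraries, 219, 215, 219 and 217 bp wide, and in 1 of 4 WT libraries (replicate 6, 266 bp). Its percentile was 3.84, 4.40, 2.17 and 3.02 in MUT and 8.34 in WT replicate 6, so the peak stood near the bottom of each list that held it. Fisher's exact test gave p = 0.143 (adjusted p = 1 over 50044 regions), and 0.903% of all regions had the pattern of 4 MUT and 1 WT library. Of the 40 regions found in at least 2 libraries, 0 were called in 4 MUT and 0 WT libraries (0.583% of all regions) and 0 in 4 WT and 0 MUT libraries (0.178%). By Fisher's exact test 0 had an unadjusted p under 0.05 (0.761% of all regions) and 0 passed (0% of all regions). The smallest p of this test was 0.0286, reached by 381 of 50044 regions, and it was too large to pass the adjustment. That 0 passed therefore shows nothing about these regions.

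The next region of Gzmm covered the start site itself (79688988 to 79689430). It was 388, 417, 434 and 429 bp wide in MUT and 376, 378, 408 and 319 bp in WT (log2 difference 0.18, SE 0.082, limma adjusted p = 0.592). The strongest region lay in the gene body (79691898 to 79692423), at mean percentiles of 66.7 in MUT and 66.4 in WT. In sum Gzmm had 1432, 1624, 1628 and 1631 bp in MUT and 1335, 1377, 1558 and 1144 bp in WT. The log2 difference was 0.17 (SE 0.083, 95% interval -0.025 to 0.36, limma adjusted p = 0.523); it was -0.12 with the upper 50% of each list.

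**Figure D3:**
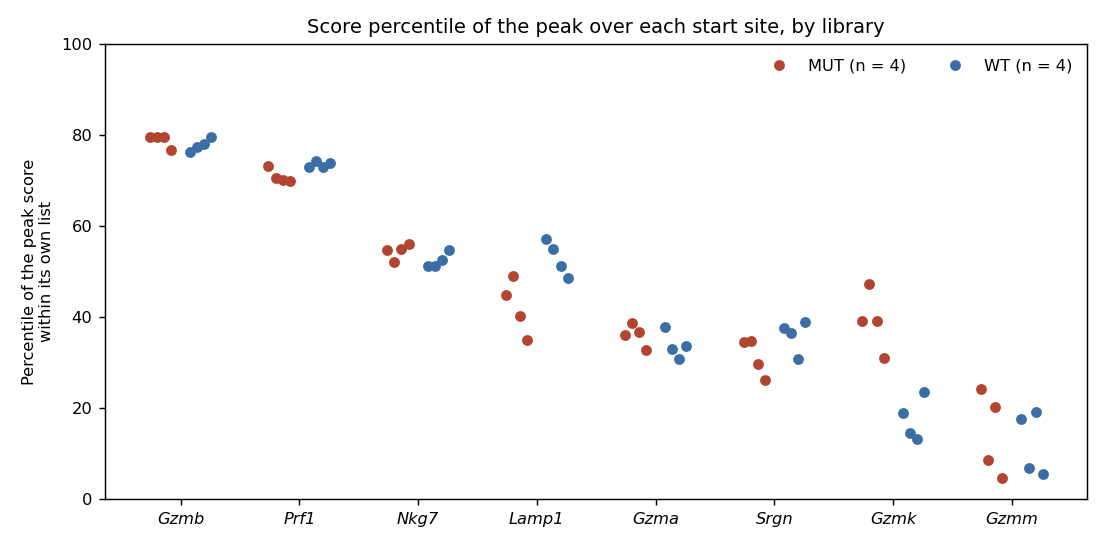
Percentile of the peak score within its own list (y axis, 0 to 100, strongest at 100) for the peak over the start site of 8 genes (x axis) in 4 MUT (red, left) and 4 WT (blue, right) libraries. Gzmb and Prf1 stand highest, and at Gzmk the MUT values of 31.0 to 47.2 lie above the WT values of 13.2 to 23.4.

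Nkg7 encodes a granule membrane protein needed for full degranulation, and its short gene (chromosome 7, 43437138 to 43438246, gene ID 72310) had 1 region near each end. The region over the start site (43436296 to 43437263) was 949, 959, 939 and 954 bp wide in MUT and 940, 957, 951 and 959 bp in WT, at percentiles of 54.7, 52.1, 55.0 and 56.1 in MUT and 51.2, 51.2, 52.6 and 54.7 in WT. In sum Nkg7 had 1375, 1402, 1389 and 1412 bp in MUT and 1447, 1380, 1401 and 1379 bp in WT. These values differed little between mice, and the log2 difference was -0.041 (SE 0.052, 95% interval -0.16 to 0.079, limma adjusted p = 0.821).

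Serglycin packs granzymes and perforin in the granule, and its gene Srgn (chromosome 10, 62493833 to 62527445, gene ID 19073) held the strongest region of the set. That region (62532642 to 62533399) lay outside the gene, 5578 bp before the outer start site, at percentiles of 95.3, 94.6, 98.5 and 97.1 in MUT and 97.0, 95.1, 96.2 and 96.5 in WT. Its width was 715, 736, 744 and 644 bp in MUT and 730, 743, 717 and 730 bp in WT. The outer start site (62527445) lay in no region shared by 8 libraries, while the inner one (62507757) was covered in all 8 (62507593 to 62508046) at mean percentiles of 31.2 in MUT and 35.9 in WT. In sum Srgn had 2928, 2924, 2968 and 2480 bp in MUT and 2923, 2943, 2983 and 2905 bp in WT. MUT replicate 29 was the low library. It had no peak in the weakest region of the gene (62503422 to 62503659) and a narrower peak at 62505973 to 62506620 (449 bp, against 593 to 608 bp in the other MUT libraries). The log2 difference was -0.093 (SE 0.044, 95% interval -0.19 to 0.0064, limma adjusted p = 0.478).

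Cathepsin W is a cysteine protease found in NK and cytotoxic T cells, and its gene Ctsw (chromosome 19, 5465043 to 5468628, gene ID 13041) had the same pair of regions in all libraries. The stronger one in the gene body (5466995 to 5467700) was 665, 682, 675 and 677 bp wide in MUT and 652, 668, 656 and 655 bp in WT, at mean percentiles of 77.5 and 74.9. The other covered the right-hand end of the gene (5468351 to 5468702), at mean percentiles of 50.3 in MUT and 52.3 in WT. In sum Ctsw had 991, 1015, 1020 and 1011 bp in MUT and 991, 1007, 997 and 986 bp in WT, the narrowest spread of the 10 genes (SD 12.7 bp in MUT and 9.03 bp in WT). The log2 difference was -0.016 (SE 0.050, 95% interval -0.13 to 0.100, limma adjusted p = 0.932).

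LAMP1, or CD107a, is a lysosomal membrane protein that reaches the cell surface when granules are released. Its gene (chromosome 8, 13159161 to 13175338, gene ID 16783) is active in most cells. The region over the start site (13158806 to 13159963) was 911, 844, 1158 and 616 bp wide in MUT and 763, 1101, 738 and 959 bp in WT, at percentiles of 44.8, 49.0, 40.3 and 34.9 in MUT and 57.2, 55.0, 51.1 and 48.5 in WT. A weak region in the gene body (13161888 to 13162211) was called in 2 of 4 MUT and 4 of 4 WT libraries (Fisher's exact test, p = 0.429), a pattern of 1.0% of all regions. In sum Lamp1 had 911, 1098, 1423 and 616 bp in MUT and 963, 1301, 1008 and 1196 bp in WT. MUT replicates 28 and 29 were the highest and lowest of all libraries, and the log2 difference was -0.19 (SE 0.17, 95% interval -0.59 to 0.21, limma adjusted p = 0.739).

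**Figure D4:**
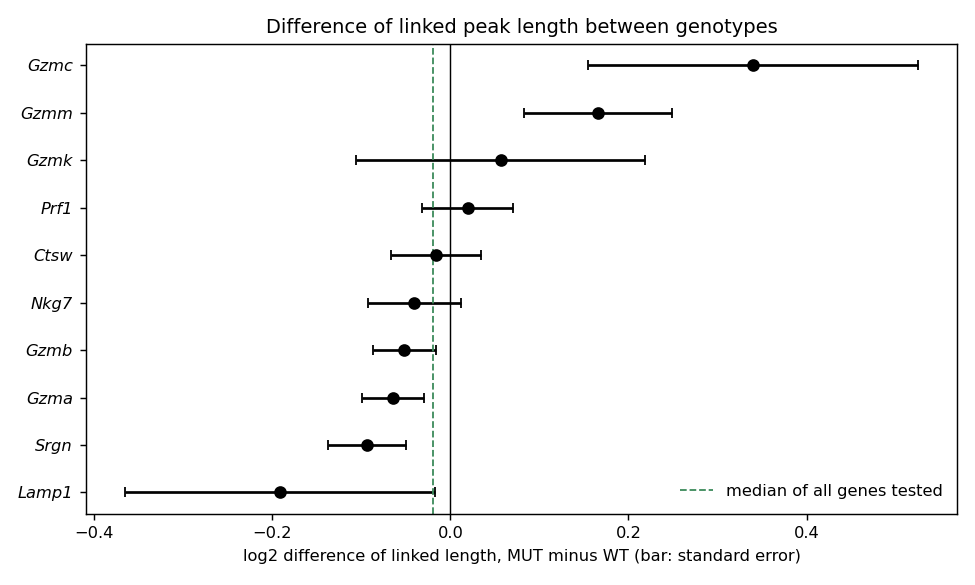
log2 difference of scaled linked length, MUT minus WT (x axis, bars are standard errors), for the 10 genes (rows), with the median of all genes tested as a dashed line. None of the 10 passed the test, and Gzmc at 0.34 and Lamp1 at -0.19 have the longest bars beside Gzmk.

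Peak widths were compared over the regions shared by all mice. Of the 35 shared regions 14 were wider in MUT, against 19177 of 34461 over the whole series, and the median log2 difference of width was -0.0097, against 0.0098 over all shared regions. By limma 0 of the 35 passed (0.0871% of all shared regions) and 1, the Gzmk start-site peak, had an unadjusted p under 0.05 (8.87%). The widths of the genotypes overlapped in each of the 35 regions, whereas 5.41% of all shared regions had groups apart.

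**Figure D5:**
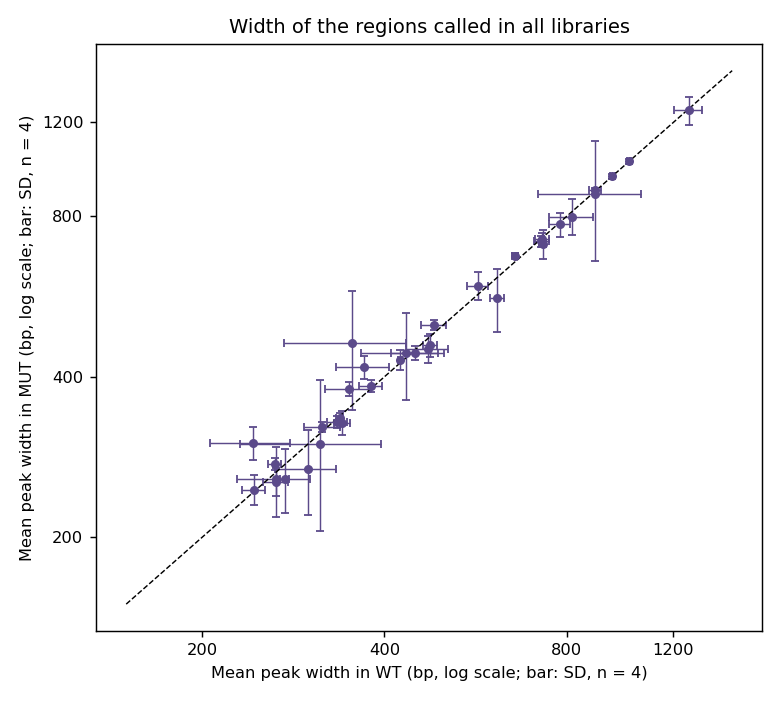
Mean peak width in WT (x axis) and MUT (y axis), in bp on log scales with SD bars (n = 4 each), for the 35 regions of the granule genes called in 8 of 8 libraries. Points lie along the dashed line of equal widths. Bars are long at some narrow regions and at the wide Lamp1 start-site region (SD 223 bp in MUT and 172 bp in WT).

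Genes that serve the granule were examined in lists of their own. Among 13 other granzymes and proteases of the Gzmb cluster, 4 had enough peaks to be tested and 0 passed. All 4 had a log2 difference above 0, against 42.1% of all genes. Their median was 0.29, against -0.019 over all genes, and only 2 of them had peaks in 8 of 8 libraries. Gzmf had 244, 432, 435 and 472 bp in MUT and 416, 431, 230 and 0 bp in WT (limma adjusted p = 0.692). Mcpt8, a basophil protease, had 306, 402, 365 and 377 bp in MUT and 0, 326, 0 and 314 bp in WT (limma adjusted p = 0.470). The values of both genes overlapped between the genotypes.

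Among the genes that move and fuse granules, 22 of 25 were tested and 0 passed in either direction, with a median log2 difference of -0.0042. Rab11fip5, an effector of recycling endosomes, had 1602, 1685, 1660 and 1358 bp in MUT and 1830, 1903, 1935 and 1565 bp in WT (log2 -0.21, SE 0.061, limma adjusted p = 0.239). Plekhm2, which links lysosomes to kinesin, had 627 ± 130 bp in MUT and 452 ± 51.0 bp in WT (SD, n = 4 each; log2 0.31, limma adjusted p = 0.434). Arl8b, a GTPase of lysosome transport, held the 1 of 73 regions of this list called in 4 MUT and 0 WT libraries (0.583% of all regions), a weak one at chromosome 6, 108784883 to 108785147, with a mean percentile of 7.99.

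Among 17 genes for processing, sorting and inhibition of granule proteases 0 passed, with a median log2 difference of -0.029. Serpinb1a, an inhibitor of serine proteases, had 0, 423, 254 and 0 bp in MUT and 400, 459, 497 and 697 bp in WT (log2 -1.15, SE 0.36, limma adjusted p = 0.280). MUT replicate 27 exceeded WT replicate 4, so the groups overlapped. The lysosomal protease gene Ctsb had 831 ± 187 bp in MUT and 944 ± 47.9 bp in WT (limma adjusted p = 0.533). Of 5 death ligands and related cytokines 0 passed; Ltb had 1002 ± 35.3 bp in MUT and 770 ± 229 bp in WT (limma adjusted p = 0.522) and Tnf 464 ± 9.20 and 484 ± 14.8 bp (limma adjusted p = 0.772; SD, n = 4 each).

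Genes with a linked length closest to that of Prf1 in the 8 libraries, by mean absolute difference of the log2 values, were Gna12 (0.026), Map1lc3b (0.030) and Hsp90ab1 (0.030). This measure picks genes of the same level of linked length and shows no shared change between libraries. Those most like Gzmb were Atxn7 (0.028), Map3k5 (0.034) and Psma1 (0.035). Mean linked length was 2063 to 2088 bp in the 3 genes like Prf1 and 4174 to 4229 bp in those like Gzmb.

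The lists held 44333 to 49627 peaks in MUT and 42695 to 46102 in WT, with median widths of 398 to 411 bp and 399 to 411 bp. Read depth is unknown for these files, and a site without a called peak may still be open. All 8 NK markers had peaks in 8 of 8 libraries, among them Ncr1 and Klrb1c, and Klrb1c was the 1 NK marker past the threshold (5360 ± 213 bp in MUT and 6347 ± 259 bp in WT, SD, n = 4 each; limma adjusted p = 0.0313). Of the other cell types, 3 of 8 B cell markers, 5 of 8 T cell markers, 5 of 8 basophil and mast cell markers and 4 of 8 myeloid markers had peaks in 8 of 8 libraries, and Cd4, Cd8a, Cd8b1, Lyz2, Csf3r, Mpo and Prss34 had 0 bp in all. The B cell list summed to 2157 to 3644 bp in MUT and 2244 to 3066 bp in WT, the basophil and mast cell list to 8187 to 10308 and 7696 to 8880 bp, and the myeloid list to 4818 to 6128 and 4912 to 5813 bp. No gene of these 4 lists passed. Genes among the 2 with the smallest unadjusted p of their list are given as the mean ± SD of 4 MUT libraries followed by that of 4 WT libraries. They included Spib (348 ± 119 and 561 ± 53.8 bp, limma adjusted p = 0.18), Flt3 (735 ± 192 and 464 ± 75.6 bp, limma adjusted p = 0.258), Csf1r (520 ± 161 and 616 ± 107 bp, limma adjusted p = 0.590), Cd5 (2298 ± 470.1 and 1854 ± 166 bp, limma adjusted p = 0.410), Bcl11b (3902 ± 784 and 3140 ± 501 bp, limma adjusted p = 0.533) and Kit (2197 ± 213 and 1828 ± 276 bp, limma adjusted p = 0.466). By limma the unadjusted p was under 0.05 for Spib, Flt3 and Cd5, and above 0.05 for Csf1r, Bcl11b and Kit. Ncr1, the second NK marker by p, had 3448 ± 377 bp in MUT and 2855 ± 198 bp in WT (limma adjusted p = 0.277). It was the 1 of 8 NK markers with a log2 difference above 0, and the list median was -0.077, against -0.019 over all genes. An unadjusted limma p under 0.05 was found for 4 of 8 NK markers, against 11.2% of all genes. Among these, Klrd1 had 2000 ± 196 bp in MUT and 2266 ± 89.7 bp in WT (limma adjusted p = 0.318). Eomes had 3606 ± 351 and 3766 ± 177.5 bp (limma adjusted p = 0.378). Spib held 1 of the 11 regions of the B cell list, and Klrb1c 1 of the 83 of the NK list, called in 0 of 4 MUT and 4 of 4 WT libraries, a pattern of 0.178% of all regions. The part of other cell types in the values of the granule genes was not tested.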

How the data were processed

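Open chromatin was assayed by ATAC-seq in 8 mice, 1 library each. Every library had its own deposited list of peaks, with positions, a name and, in column 5, an unnamed score, the authors' own value per peak, used here only to rank and filter peaks within a list. DiffBind 3.0.12, DESeq2, Bowtie2 2.3.4.1 and Trimmomatic are listed, without their roles, per the submitters' processing notes, with mm10 (GRCm38) as build. Which peak caller, read filters and transposase shift were used is not given in the sources used here, and each could move the edges of peaks.

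Peaks were linked to the nearest end of 21883 protein-coding genes (RefSeq, GRCm38.p6) within 50 kb of the peak midpoint. Length was tested for each gene that 2 or more libraries gave a peak, and width over regions found in 8 of 8, with limma 3.58.1 (moderated test with trend). Calls per region were tested by two-sided Fisher's exact test, whose smallest p is 0.0286. The threshold was an adjusted p of 0.05. Where a library had several peaks in a region, widths were summed and the highest percentile was taken. The code was tested on simulated data. Software was R 4.3.3, Python 3.11.15 and scipy 1.17.1.

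Named genes are the 10 granule genes, the 2 genes of each list with the smallest p, genes that passed or had a region called in 1 genotype alone, and the 3 genes most like Prf1 and Gzmb. The members and lists were chosen with earlier results of these data known. The Gzma, Gzmk and Gzmc promoters, other Gzmb cluster genes and markers without peaks were named after their values were seen. Of 110 list entries 1 did not match the gene table. A result that the rule for named genes would add is not reported here.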

Additional observations from a re-analysis of the deposited data

Results flagged for a closer look

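Among 90 sets of 4 libraries examined (linked lengths and widths of shared regions), 6 had 1 library far from the other 3, and chance flags about 1 in 20. Prf1 had 1888 bp of linked peaks in WT replicate 7, against 2064 to 2096 bp in the other WT libraries, and Gzma had 4182 bp in WT replicate 5, against 4003 to 4028 bp. Gzmm had 1432 bp in MUT replicate 26, against 1624 to 1631 bp in the other MUT libraries. Srgn had 2480 bp in MUT replicate 29, against 2924 to 2968 bp, and its region at 62505973 to 62506620 was 449 bp wide there, against 593 to 608 bp. The Srgn region at 62500244 to 62500547 was 283 bp wide in WT replicate 6, against 257 to 260 bp in the other WT libraries.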

How the results depend on the processing

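No paired analysis was possible because the replicate numbers of MUT and WT do not overlap. For linked length, 0 granule genes passed in the 8 other settings and with any of the 8 libraries left out, and for width 0 regions passed in 4 other settings and in the same 8. A region of these genes called in 1 genotype alone appeared in 0 of 3 other settings and ranged from 0 to 1 with a library left out. The 1 was the Gzmm region without WT replicate 6, the only WT library that called it.

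Small differences changed sign, none past the threshold. With equal numbers of peaks the log2 difference was -0.0087 for Gzmm and 0.0057 for Ctsw, and without scaling 0.017 for Ctsw. With the upper 50% of each list it was -0.0018 for Prf1, 0.12 for Gzma and -0.12 for Gzmm, and Gzmk had no value. It was 0.013 for Ctsw without MUT replicate 27, -0.012 for Prf1 without MUT replicate 29 and -0.028 for Gzmk without WT replicate 6. With 1 library left out Prf1 ranged from -0.012 to 0.057, Gzmk from -0.028 to 0.21 and Ctsw from -0.048 to 0.013. With 1 library left out, values also moved by over 1.5 times, with no change of sign, for genes that included Lamp1 (-0.34 without MUT replicate 28 and -0.046 without MUT replicate 29), Gzmc (0.20 without MUT replicate 29) and Nkg7 (-0.0099 without MUT replicate 27 and -0.079 without MUT replicate 29). Such moves in other settings included 0.12 for Prf1 and -0.11 for Gzma with equal numbers of peaks. Gzmb was -0.0042 with links up to 10 kb, and Srgn was -0.050 with the upper 50% of each list. Lamp1 was -1.80 with the upper 50% of each list. Its start-site peak stood at percentiles of 44.8, 49.0, 40.3 and 34.9 in MUT and 57.2, 55.0, 51.1 and 48.5 in WT. In that setting no MUT library kept a Lamp1 peak, and of the WT libraries only replicates 4, 5 and 6 did. The value therefore rests on which libraries kept the peak. The cause of these changes was not tested.

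Over all genes, 63 were higher and 33 lower in MUT. These counts were 28 and 13 at 10 kb, 67 and 54 with equal numbers of peaks and 63 and 19 without scaling. They ranged from 19 to 53 and from 3 to 30 with 1 library left out. Both counts moved by over 1.5 times without WT replicates 4, 5 or 7 or MUT replicates 26, 27 or 28. Regions called in 1 genotype alone, 292 in MUT and 89 in WT, ranged from 346 to 522 and from 102 to 198 with 1 library left out (moved by over 1.5 times without MUT replicates 26 or 29 or WT replicate 6, and without MUT replicates 27, 28 or 29 or WT replicates 6 or 7), and the WT count was 138 with equal numbers of peaks. Widths past the threshold, 30 in all, numbered 17 with the upper 50% of each list and 16 to 57 with 1 library left out (moved by over 1.5 times without MUT replicate 29 or WT replicates 6 or 7). For regions called in 1 genotype alone, leaving a library out loosens the rule from 4 libraries to 3 in that group. Those counts rose in every such setting and do not measure how far the result rests on a single library. Unknown read depth limits what a missing peak shows.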

Other observations

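Open regions near a granule gene were often assigned to its neighbours. Of the 15 regions shared by 8 libraries within 50 kb of Prf1, 3 were linked to Prf1, and the others to Adamts14 and Pald1. Among them a region at -16536 bp from the Prf1 start site (chromosome 10, 61281114 to 61281477) was nearer to an end of Adamts14, at a mean percentile of 53.3, and a region at 20810 bp (61318281 to 61318994) was nearer to Pald1, at 70.6. By contrast 7 of 8 such regions near Gzmb were linked to Gzmb, and 8 of 14 near Gzma to Gzma. These regions were chosen after their values were seen, and which gene they act on was not tested.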
